A study of Homo sapiens with 4 samples.

Results

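Nuclear transport genes were examined in a list of peaks from RNA immunoprecipitation of HuR in MDA-MB-231, a cultured line of triple-negative breast cancer. HuR, encoded by ELAVL1, binds RNA at elements rich in U or in A and U. RNA immunoprecipitates were made with anti-HuR (2 samples) or with mouse IgG as control (2 samples), all 4 from the same line, with no treatment named in the labels. A single table of 14149 peaks was deposited for the series. A peak belonged to the nuclear transport genes when the RefSeq transcript named in its annotation was from a gene of the importin, karyopherin, transportin, exportin, numbered nucleoporin, Ran, Ran-binding, NXF or NXT families, chosen by gene symbol. There were 108 such peaks on 25 of the 3313 genes that had a peak. The list gave a HOMER peak score, a value used here only to rank and describe peaks, and no value for a single sample or for IgG. The spread between replicates and the difference between HuR and IgG at a peak were therefore not measured, and a gene without a peak was not shown to be unbound.

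Proteins and RNAs cross the nuclear envelope through pores built of nucleoporins. Importins carry cargo into the nucleus, exportins carry it out, and the small GTPase RAN gives the transport its direction, while the NXF and NXT proteins export most mRNA. HuR itself shuttles between nucleus and cytoplasm. Transportins (TNPO1 and TNPO2) and importin alpha proteins are known as import carriers of HuR, and its export has been linked to XPO1 through the ligands ANP32A and ANP32B. The data below describe peaks on the mRNAs of these carriers, and not transport of the HuR protein.

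The sequences shown first come from the peaks that lay wholly in a 3′-UTR, with each window read as listed. Most intronic peaks lay ahead of their exon along the peak strand, as described below, so a stretch may not mark where the signal was. For each gene the stretch with the most bases in ATTTA or in runs of T is given, because HuR is known for binding such elements. Each is 30 bases of the sense strand (hg38, written as DNA), with every ATTTA and every run of at least 5 T in capitals. The KPNA4 stretch is from the second highest of its peaks, because the window of the highest held neither motif.
KPNB1, chr17:47682921-47682950, + strand: gagggtcagggaTTTTTTacagtctgagaa
KPNA4, chr3:160501821-160501850, − strand: tacatgaatgcttATTTAggttgttcaaag
RAN, chr12:130876906-130876935, + strand: tacaccgTTTTTTTgTTTTTTTTTcccccc
NUP50, chr22:45187536-45187565, + strand: taaacaagtttgTTTTTTgagcatttgtca
TNPO2, chr19:12699918-12699947, − strand: cttagcaTTTTTTcccTTTTTTTccttccc
NXT2, chrX:109543608-109543637, + strand: tctaagactaataTTTTTagatcTTTTTac
NUP62CL, chrX:107124104-107124133, − strand: gtgcatccTTTTTTTcATTTAagtattgta
The longest U-rich tract of these was in RAN, where 16 of the 30 bases lay in runs of T. KPNB1 and NUP50 had 6 such bases each, and the KPNA4 stretch held 1 ATTTA and 0 runs of T.

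The rule matched 63 protein-coding genes, of which 24 had a peak, or 38.1% (Wilson 95% interval 27.1 to 50.4%). Over all protein-coding genes 15.4% had one. The 25th symbol, IPO11-LRRC70, is a read-through transcript, and its 2 peaks lay beside exons 28 and 29 of IPO11. Nuclear transport transcripts are long, so the share was also read among genes whose spliced length lay within the quartiles of the 63 genes. There, 13 of 31 nuclear transport genes had a peak (41.9%), against 22.7% of all genes of that length. The level of the transcripts was not measured, and its part in these shares was not tested.

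Every role group had genes with and without a peak. A peak was present for 3 of 7 importin alpha genes, 6 of 12 genes of the importin beta family and 4 of 8 exportin genes. It was present for 2 of 6 mRNA export receptor genes, 2 of 6 genes for Ran and Ran-binding proteins, and 7 of 24 nucleoporin genes. With so few genes in each group, these shares were only described. Peaks per gene ranged from 1 to 18 with a median of 3, against 2 over all genes with a peak. Overlapping peaks, also of opposite strand, were counted separately. Merging them gave 92 loci in place of 108 peaks, and 15 in place of 18 for XPO4. At least 5 peaks were found on 9 of the 25 genes, or 36.0%, against 31.1% of all listed genes, and a single peak on 7 of the 25, against 32.1% of all listed genes.

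The median of the highest score per gene was 43.8 over the 25 genes, against 34.0 over all 3313, and the range was 12.0 to 793.9. The highest score reached 100 for 7 of the 25 genes, against 21.6% of all listed genes. These were KPNB1, KPNA4, XPO1, RAN, TNPO1, NUP58 and NUP43. Scores under 100 in the list lay on whole multiples of 0.245, and 95% exact Poisson intervals below treat 1 such step as 1 sequenced tag. That reading was not stated by the authors, and the intervals cover counting error only.

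**Figure D1:**
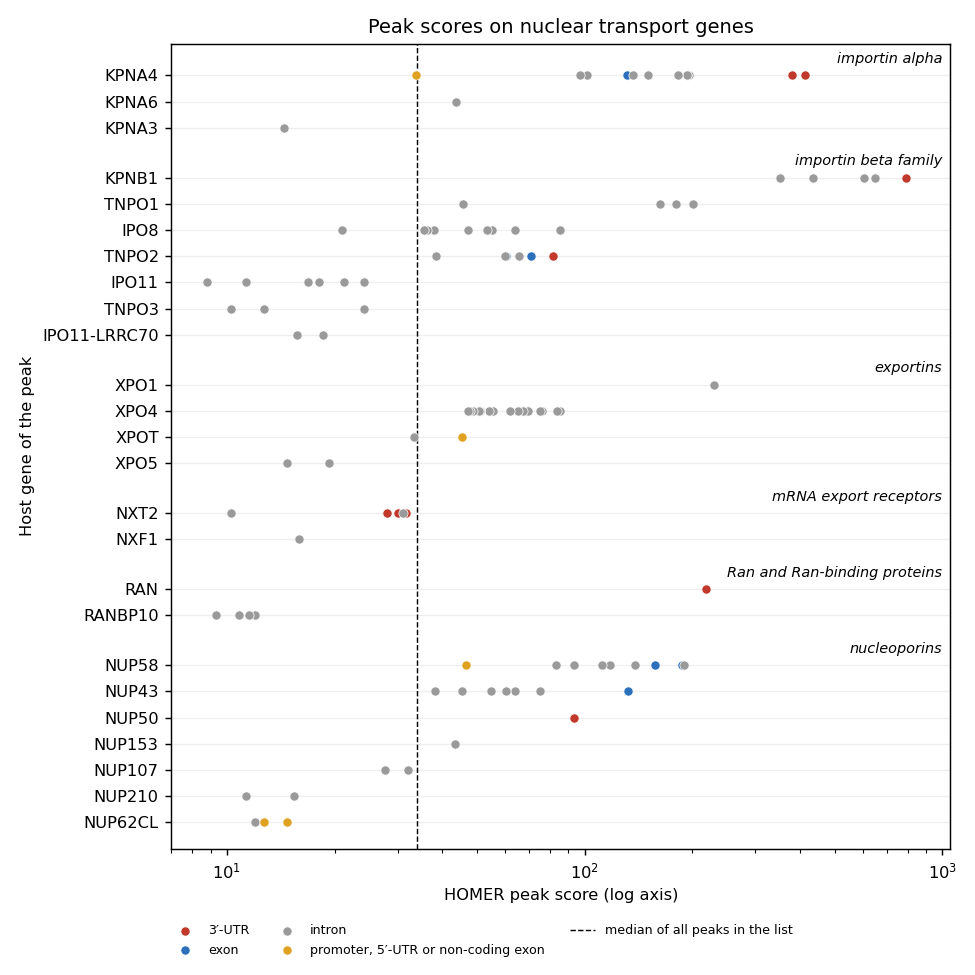
Each point is 1 peak, placed by its HOMER score (log axis) on the row of its host gene, with genes grouped by role and coloured by the deposited annotation of the peak centre. The dashed line is the median score of all peaks, 34.0. KPNB1 holds the highest peak, at 793.9, and the 18 peaks of XPO4 fall in a narrow band from 47.2 to 85.4.

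Among the import receptors, KPNB1 had the highest peak. It encodes importin beta 1, the carrier that works together with importin alpha. Its 5 peaks scored 793.9, 649.0, 605.4, 435.1 and 351.7. The highest, with an interval of 766.8 to 821.6, was a 3′-UTR peak (chr17:47682805-47683151), and its centre was 575 bases past the stop codon in a 3′-UTR of 3102 bases. It ranked 68 among the 3313 genes. The other peaks were annotated in introns and lay 26 to 113 bp from coding exons 8, 10, 11 and 21. The 3′-UTR peak stood above the rest beyond counting error.

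Of the importin alpha genes, which encode the adaptors for classical nuclear localisation signals, KPNA4 had 12 peaks. Its 2 highest, with scores of 413.6 (interval 394.1 to 433.8) and 380.5 (361.8 to 399.9), were 3′-UTR peaks at chr3:160501445-160501791 and chr3:160501582-160501928. They were of opposite strand, overlapped each other and had centres 486 and 349 bases past the stop codon. The 3′-UTR is 7097 bases long, and 0 other peaks were found in it. The remaining 10 peaks scored from 33.8 to 195.3 and were near exons 1 to 15, so every KPNA4 peak outside the 3′-UTR was lower than both peaks in it. An exon of another gene, KRT8P12, also lay under the peak of 33.8, so the source of that peak is uncertain. KPNA6 had 1 peak of 43.8 beside exon 4 and KPNA3 1 peak of 14.4 beside exon 12. KPNA1, KPNA2, KPNA5 and KPNA7 had 0 peaks. Long AU-rich 3′-UTRs were found on both sides, since KPNA1 has 14 ATTTA in 5083 bases and KPNA5 has 42 in 9544 bases, while KPNA4 has 17.

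Both transportins known to import HuR were listed. TNPO1 had 4 peaks with scores of 201.2, 179.6, 162.7 and 45.8, beside exons 14, 9, 14 and 1 of 25. The top TNPO1 peak (chr5:72889870-72890216) had an interval of 187.6 to 215.4. Its 3′-UTR of 5715 bases holds 25 ATTTA and had 0 peaks. TNPO2, the close relative of TNPO1, had 6 peaks with scores of 81.5, 71.0, 65.6, 60.2, 60.0 and 38.4. The highest (interval 73.0 to 90.7) was a 3′-UTR peak (chr19:12699797-12700143), centred 1294 bases past the stop codon. The best TNPO1 score was thus above every TNPO2 score beyond counting error, and of the 2 genes TNPO2 alone had a 3′-UTR peak in the list. The window of that TNPO2 peak held 13 bases in runs of T and 0 ATTTA, with a GC content of 54.2%.

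The other listed import receptors were IPO8, IPO11 and TNPO3. IPO8, known as an import receptor of Argonaute proteins, had 9 peaks from 21.0 to 85.2 spread over exons 1 to 21 of 25, and its relative IPO7 had 0. The 3′-UTR of IPO7 is the longer and richer in ATTTA, with 13 in 2933 bases against 2 in 1872 bases for IPO8. IPO11 had 6 peaks from 8.81 to 24.2, and TNPO3, which imports splicing factors of the SR family, had 3 from 10.3 to 24.2. An exon of another, unnamed gene also lay under the IPO11 peak of 21.3. The intervals of the best IPO11 and TNPO3 peaks, 19.7 to 29.5 for both, were the same. IPO4, IPO5, IPO9, IPO13 and RANBP6 were unlisted.

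Of the exportins, XPO1 had the highest score and XPO4 the most peaks. XPO1, the main exportin for proteins with leucine-rich export signals, had 1 peak of 230.3 (interval 215.8 to 245.5) at chr2:61482536-61482882, 170 bp from exon 23 of 25. An exon of the transcript USP34-DT also lay under this window, so its source is uncertain. XPO4, which exports the translation factor EIF5A, had 18 peaks near 13 of its 23 exons. The lowest of these scored 47.2, the median was 58.5 and the highest was 85.4, at chr13:20822279-20822625. The highest was 1.81 times the lowest. Of the 361 listed genes with at least 10 peaks, the median of this ratio was 5.12, and 3 genes including XPO4 were at or below the XPO4 value. This comparison was chosen after the XPO4 values were seen. The 3′-UTR of XPO4, of 6393 bases, had 0 peaks.

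The exportins of small RNAs were lower. XPOT, the tRNA exportin, had a peak of 45.3 at its first exon and one of 33.3 beside exon 23. XPO5, the exportin of microRNA precursors, had peaks of 19.3 and 14.7, whose intervals overlapped. CSE1L, which returns importin alpha to the cytoplasm, and XPO6, XPO7 and RANBP17 were unlisted.

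**Figure D2:**
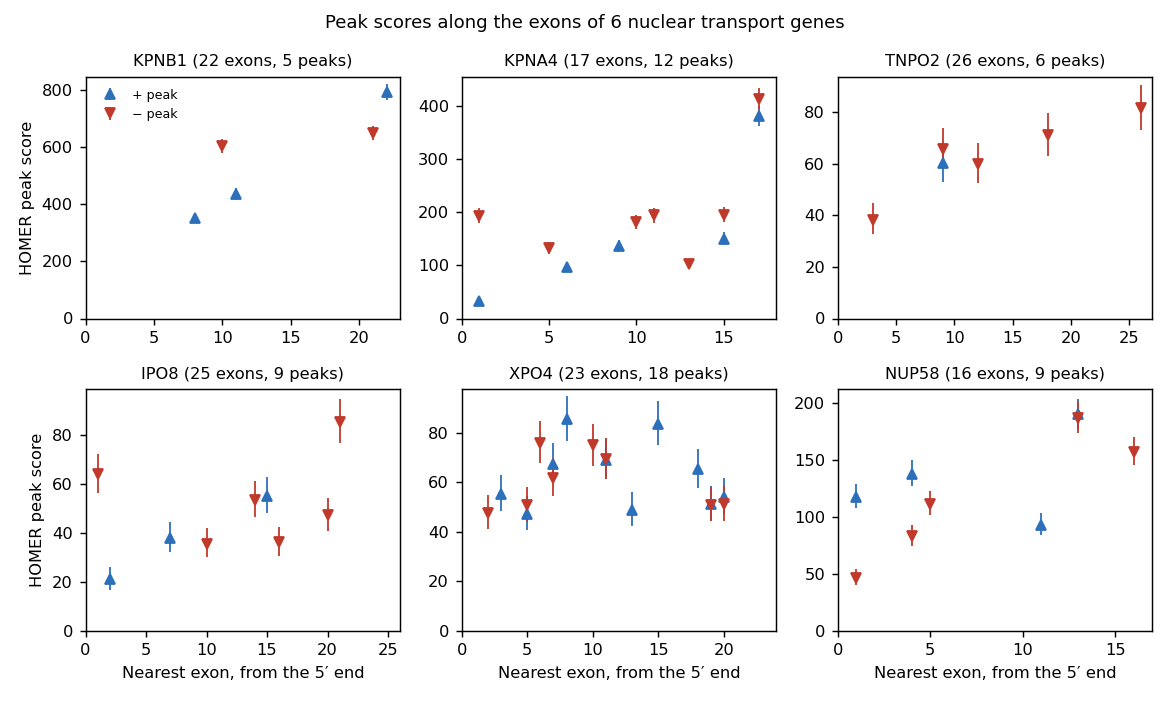
HOMER peak score is plotted against the canonical exon nearest to the peak centre, counted from the 5′ end, for KPNB1, KPNA4, TNPO2, IPO8, XPO4 and NUP58, with upward triangles for + peaks, downward triangles for − peaks and bars for exact Poisson 95% intervals of counting error. In KPNB1, KPNA4 and TNPO2 the highest peak is at the last exon, whereas the peaks of XPO4 stay between 47.2 and 85.4 from exon 2 to exon 20.

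The single peak of RAN (chr12:130876717-130877063) was in the 3′-UTR and scored 218.8 (interval 204.7 to 233.6). The window held 1 ATTTA and 42 bases in runs of T, the most of any 3′-UTR window of these genes. Its interval overlapped those of XPO1 and of TNPO1, so RAN could not be ordered against either, whereas the intervals of XPO1 and TNPO1 did not overlap. RANBP10, a relative of the scaffold protein RANBP9, had 4 peaks of 12.0, 11.5, 10.8 and 9.30. All 4 were in intron 3, between 1918 and 2940 bp from the nearest exon, and an unnamed lncRNA had an exon under 2 of them. They were the only peaks of the 108 over 347 bp from an exon of their gene, and their place in mature RANBP10 mRNA is uncertain. RANBP1, RANBP3, RANBP3L and RANBP9 were unlisted.

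The mRNA export receptors had low scores. NXF1, the main export receptor of mRNA, had 1 peak of 15.9. Its centre was in an intron, 292 bp from exon 13 of 21 of the canonical transcript, and an exon of another NXF1 transcript lay under the window. NXT2, a relative of the NXF1 cofactor NXT1, had 5 peaks of 31.6, 31.1, 30.1, 28.1 and 10.3, of which 3 were annotated in the 3′-UTR. The first 4 could not be told apart by counting error. The NXT2 window at chrX:109543587-109543933 held 3 ATTTA, the most among the 3′-UTR windows. NXT1, NXF2, NXF2B and NXF3 were unlisted.

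Of the nucleoporins, NUP58 had the highest score and 9 peaks. It is a component of the central channel of the pore. Its scores ran from 46.7 to 189.9 with a median of 117.7, and the top 2, 189.9 and 186.7, were a + and a − peak at exon 13 of 16 with overlapping intervals. NUP43, a subunit of the Y-shaped scaffold complex, had 7 peaks with scores of 132.6, 74.9, 63.9, 60.4, 54.6, 45.5 and 38.2, near 5 of its 8 exons. The highest was at the last exon (chr6:149726842-149727188) and stood above the others beyond counting error. NUP50, a mobile protein of the nuclear basket that binds importin alpha, had 1 peak of 93.2 (interval 84.1 to 103.1) in its 3′-UTR, centred 2952 bases into a 3′-UTR of 3362 bases.

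Other nucleoporins had few and low peaks. NUP153, also of the basket, had 1 peak of 43.3, and NUP107 of the Y-shaped complex had peaks of 32.1 and 27.7. NUP210, which spans the pore membrane, had peaks of 15.4 and 11.3. NUP62CL, similar to the C-terminal part of NUP62, had peaks of 14.7, 12.7 and 12.0, while NUP62 itself had 0. The NUP62CL peaks of 14.7 and 12.7 lay in its canonical 3′-UTR, although their deposited label is a non-coding exon. The 17 unlisted nucleoporin genes included NUP98, NUP214, NUP133, NUP160 and RANBP2.

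In the deposited annotation, 87 of the 108 peaks were in introns, or 80.6% (Wilson 95% interval 72.1 to 86.9%), against 61.9% of the whole list. The 3′-UTR held 9 peaks, or 8.33% (4.45 to 15.1%), against 14.6%, and exons held 7, or 6.48%, against 12.6%. A 3′-UTR peak was present on 6 of the 25 genes, or 24.0%, against 36.9% of all listed genes. These were KPNA4, KPNB1, NUP50, NXT2, RAN and TNPO2, and the highest peak of each was in the 3′-UTR, so the share of genes with their best peak there was also 24.0%, against 26.4%. NUP50 and RAN had no other peak, and in NXT2 and TNPO2 the interval of the best peak overlapped that of a peak outside the 3′-UTR. The 3′-UTR peaks stood above the others beyond counting error in KPNB1 and KPNA4. Those windows lay wholly in the 3′-UTR, whereas most other peaks of both genes were centred in introns. The scores therefore come from unlike windows, and the effect of this was not tested. The differences from the whole list carry no test, since peaks of 1 gene are not independent and XPO4 alone gave 18. The listed nuclear transport genes also had more exons, with a median of 22 against 11 over all listed protein-coding genes. The part of exon number in these shares was not tested.

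The intronic peaks were close to exons. Of the 87, 83 lay within 1 peak length, 347 bp, of an exon, with a median distance of 113 bp, and the whole list gave 96.4% and 101 bp against 95.4% here. The exon lay behind the peak, against its own strand, in 82 of these 83 cases, or 98.8%, against 99.6% of the list. The remaining 1 was a TNPO2 peak of 65.6. When the position 173 bp back from the centre was read instead, 55 peaks or 50.9% (41.6 to 60.2%) were in coding exons, 33 in introns and 13 in 3′-UTRs. The whole list gave 53.2% in coding exons at that position. Introns then held 30.6% of the nuclear transport peaks against 20.2% of the list, and 3′-UTRs held 12.0% against 18.7%. Intron labels of single peaks are thus uncertain, and the nearest exon is given above for that reason. The 3′-UTR windows and distances to stop codons given above were not moved.

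**Figure D3:**
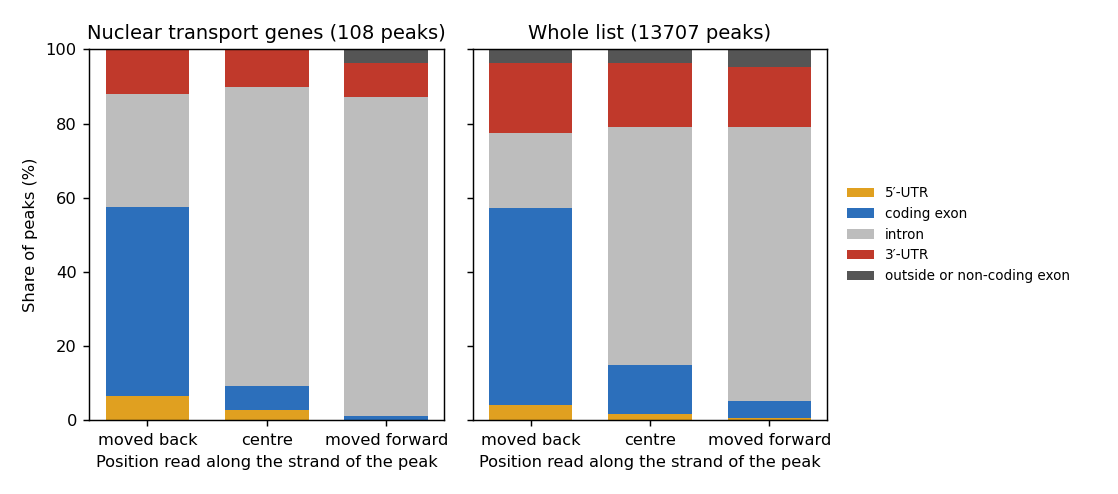
Bars show the share of peaks (%) by region of the canonical transcript at the peak centre and at positions moved 173 bp back against or forward along the strand of the peak, for the 108 nuclear transport peaks and for the 13707 peaks of the list that could be placed. Coding exons rise from 6.48% at the centre to 50.9% at the position moved back on nuclear transport genes, and from 13.1% to 53.2% over the list.

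The library kit did not mark strand, so the strand of a peak does not tell the strand of its RNA. Some peaks of opposite strand stood in pairs. No count of such pairs over the whole list is given here, so pairing is not shown to be particular to these genes. For 23 − peaks on 10 genes, a + peak of the same gene was within 1000 bp (a + peak could serve more than 1 − peak), and the 2 scores were within 1.5-fold of each other in 19 cases, with a median ratio of 1.11. The + peak lay to the right in 19 of the 23. In XPO4, all 6 pairs had ratios of at most 1.09. The widest ratio, 5.71, was at exon 1 of KPNA4. Of the 108 peaks, 59 were on the strand of their gene, or 54.6% (45.2 to 63.7%), against 53.2% of the list.

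Sequence features of whole 3′-UTRs were compared between the 24 nuclear transport genes with a peak and the 39 without. The 3′-UTR had a median length of 2175 bases (range 346 to 7097) in listed genes and 987 bases (79 to 9544) in unlisted ones. The number of ATTTA had a median of 5.5 and of 1, and the density 2.61 and 1.96 per 1000 bases. The share of 3′-UTR bases in runs of at least 5 T had a median of 3.165% and of 1.94%. Over all protein-coding genes that median was 3.21% for listed and 1.34% for unlisted genes. This share also overlapped, from 0.978 to 7.21% in listed and from 0 to 12.87% in unlisted nuclear transport genes. Over all protein-coding genes the medians were 2504 bases and 2.68 per 1000 bases for listed genes, and 866 bases and 1.24 per 1000 bases for unlisted ones. The median number of exons was 22 in both nuclear transport groups. The groups overlapped widely in ATTTA density, from 0 to 5.68 per 1000 bases in listed genes and from 0 to 8.10 in unlisted ones. NXF1 was listed with 0 ATTTA, and RANBP9 had the highest density and was unlisted.

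**Figure D4:**
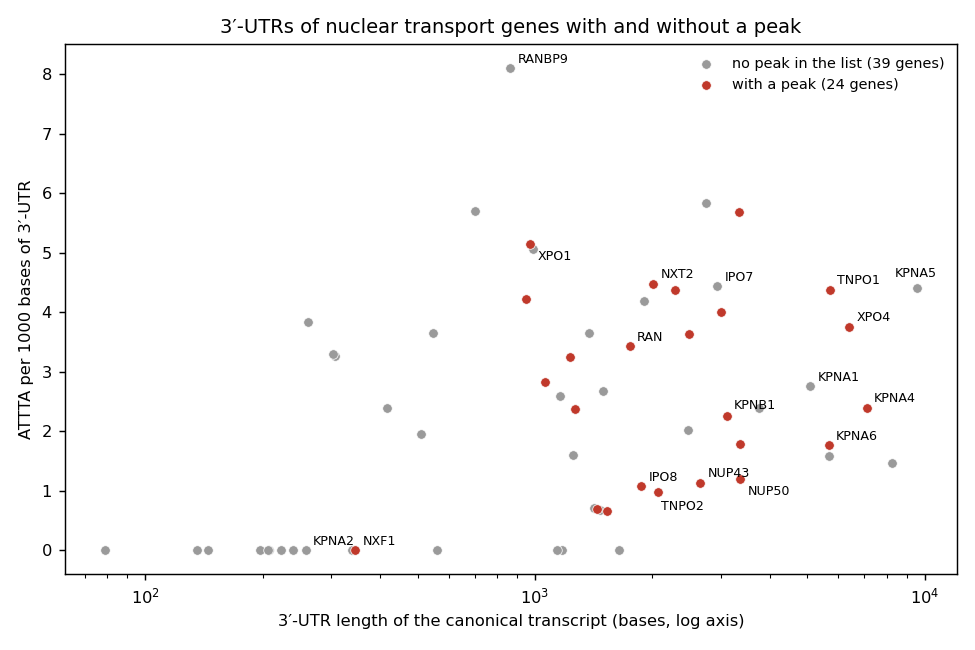
Each point is a nuclear transport gene, placed by the length of its canonical 3′-UTR (log axis, bases) and by ATTTA per 1000 bases of it, in red for the 24 genes with a peak and in grey for the 39 without. The shortest 3′-UTR of a listed gene is that of NXF1 with 346 bases, and the longest of all, KPNA5 with 9544 bases, belongs to an unlisted gene.

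The motifs were then read inside the peaks. Of 10 peak windows that lay wholly in a canonical 3′-UTR of these genes, 6 held ATTTA, or 60.0% (Wilson 95% interval 31.3 to 83.2%), and 7 held a run of 5 T, or 70.0%. These windows include 2 of NUP62CL with a deposited non-coding label. They leave out the NXT2 peak of 30.1, which was annotated in the 3′-UTR but was not wholly within the canonical one. Over the 2052 such windows of the list the shares were 54.0% and 78.7%. With windows moved back against the peak strand, 7 of 11 held ATTTA (63.6%) and 8 of 11 a run of 5 T (72.7%). The list then gave 52.4% and 75.6%. Among the few nuclear transport windows, as listed, with scores at or above the median of the list, ATTTA was in 33.3%. No list share at such scores is given beside it. The interval of 31.3 to 83.2% is too wide to tell the nuclear transport windows from the list. It also treats the windows as independent, although the KPNA4 windows overlap each other and so do those of NUP62CL. Motif content varied among the windows with the higher scores. Those of KPNB1, NUP50 and TNPO2 and the higher one of KPNA4 held 0 ATTTA, whereas those of RAN and the lower one of KPNA4 held 1 each, and RAN had the most bases in runs of T. The windows of NXT2 and NUP62CL, with scores of 31.6 or less, held 1 to 3.

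Other genes of the pathway, outside the naming rule, were looked up from a list of 35, and 12 had a peak, beside 15.4% of all protein-coding genes. SEH1L, a subunit of the Y-shaped complex, had 13 peaks with a highest score of 1324.1 and rank 25 of all genes. NUTF2, which brings RAN back into the nucleus, had 7 peaks and a highest score of 1216.2. Both were above every score of the 25 genes, and the best peak of each was in its 3′-UTR. NDC1, AHCTF1, GLE1, ALYREF, CHTOP, THOC2, THOC5, THOC6 and DDX19A were listed too, with best scores from 9.05 to 547.9. Of the ligands linked to HuR export, SET had 6 peaks and a highest score of 2136.6 with rank 12, in an exon, while ANP32A and ANP32B were unlisted. RANGAP1 and RCC1, which act on RAN, were also unlisted. The 23 unlisted genes further included TPR, POM121, SEC13, RAE1, DDX39A, DDX39B, THOC1, NCBP1 and NCBP2.

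The gene column of the list, which gives the gene with the nearest start site, differed from the host gene for 50 of the 108 peaks, or 46.3% (Wilson 95% interval 37.2 to 55.7%), against 42.9% of the list. For KPNA4, 10 of the 12 peaks carried the name of the small RNA gene SCARNA7, and the 3′-UTR peaks of KPNB1, NUP50 and TNPO2 were named TBKBP1, MIR1249 and FBXW9. A search of that column would have missed KPNA3, KPNA6, NUP50, NUP153, NUP62CL, NXF1 and XPO1 altogether.

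The cell line was checked by marker genes. Of 7 genes looked up as markers of MDA-MB-231, of which KRT18 is a keratin of simple and luminal epithelia and the others are known from basal or mesenchymal breast lines, CD44 and AXL had peaks, whereas VIM, EGFR, KRT18, CAV1 and ANXA1 did not, and 0 of 4 hormone receptor or luminal genes (ESR1, PGR, ERBB2 and GATA3) had one. A list of peaks does not measure the level of these transcripts, so the check neither bears out the label nor goes against it.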

How the data were processed

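Libraries were made without poly(A) selection with a kit that does not mark strand. By the methods and the submitters' processing notes, the authors mapped reads to hg38 with STAR, called peaks with HOMER and kept those with altered transcript abundance. The header of the deposited table names HOMER for the annotation, and the methods name ANNOVAR. Versions, settings, the handling of reads that map to several places and any pooling of replicates are not given in the sources used here. The deposited list holds a HOMER peak score, a focus ratio (a fraction from 0 to 1 per the file headers, not reported here) and a distance to the nearest start site. Peak length was 347 bp. The depth of each library is unknown.

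The host gene came from the RefSeq transcript in the annotation, matched for 13838 of 13929 peaks. Regions and 3′-UTRs came from GENCODE 44 canonical transcripts on hg38, with coordinates counted from 1. Motifs were read on the sense strand. All 11121 scores under 100 lay within 0.051 of a multiple of 0.245, against 41.7% by chance. Values were described without p-values, because the list has no value per sample and genes are not replicates. The members, gene lists and naming rules were chosen with earlier results of these data known. Values were given for the 10 genes with the highest scores, genes with a best peak in the 3′-UTR, carriers tied to HuR shuttling, and the highest and lowest gene of each role; other genes were named after their values were seen. Functions were tested on simulated data. Python 3.11.15, numpy 2.4.6, scipy 1.17.1, pandas 2.3.3, pysam 0.24.0 and matplotlib 3.10.9 were used.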

Additional observations from a re-analysis of the deposited data

How the results depend on the processing

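Across 17 alternatives to 5 results, 14 stayed within 1.5 times the count or median, or within the interval of the share. Of the 17, the 2 that left out XPO4 were chosen after seeing the data. With only scores at or above the median of the list, 14 genes had a peak in place of 25, since fewer peaks were counted. By the gene column of the list, 66 peaks were found in place of 108, on 21 genes, of which 18 were shared with the 25. In place of ATTTA, the heptamer TATTTAT was in 0.0% of the 10 windows, with an upper Wilson bound of 27.8%, against 8.24% of the windows of the list. ATTTA itself was in 33.3% in place of 60.0% when windows scoring under the list median were dropped, which left few windows. The cause was not tested. The share of peaks in 3′-UTRs ranged from 7.61% to 12.0% over its 5 alternatives. No paired analysis was possible because each peak has 1 value for the series and none per sample. No replicate could be left out either, and the unknown depth limits what can be said of unlisted genes.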
